A study of Mus musculus with 2 samples.

Results

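This group of digestive juice genes comprised the pancreatic lipase Pnlip, its relatives Pnliprp1 and Pnliprp2, the lipase cofactor colipase (Clps), the bile salt-activated lipase Cel, the pancreatic phospholipase A2 Pla2g1b, and the amylases Amy1 and Amy2a5. The members were chosen by name, with their differences between these arrays already known, and every non-control probe whose accession maps to one of them is given. The group holds 8 of 20655 genes named on the array and has 10 probes, with 2 probes each for Clps and Amy2a5 and 1 for each of the other 6 genes. RNA from whole spleen of healthy, untreated male mice was hybridised to 2 one-colour arrays, 1 array per genotype. The wild-type array carried RNA of Loxl3+/+ spleen and the other array RNA of Loxl3-/- spleen, where Loxl3 is a gene of the lysyl oxidase family. The labels give no age, strain, allele design or number of animals behind an RNA, and they do not say whether animals were pooled. With 1 array per genotype, no difference has a replicate check and no p-value was computed.

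The acinar cells of the exocrine pancreas make the lipases, colipase, phospholipase A2 and Amy2a5 amylase of this group. They pack these proteins into zymogen granules and release them into the duct. Pancreatic lipase cleaves dietary triglyceride and needs colipase to hold it on fat droplets coated with bile salts, bile salt-activated lipase cleaves cholesterol esters and other lipid esters, phospholipase A2 cleaves phospholipids, and amylase cleaves starch. Pancreatic acinar genes are known targets of a transcription factor complex called PTF1, which joins the basic helix-loop-helix protein PTF1A to RBPJL. In the body the tail of the pancreas lies beside the spleen.

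The stretches just upstream of 3 of the genes are shown because they are the DNA next to 2 of the members with large differences, Pnlip and Cel, and to a member with a smaller one, Amy2a5. They were read from RefSeq promoter windows on GRCm38.p6 and cover the 250 bases before the annotated start. Capitals mark the letters of CANNTG (the core of sites for basic helix-loop-helix proteins), TTTCCC (the core of sites for the RBPJ family), AAGGTCA (the core of sites for orphan nuclear receptors such as NR5A2) and TATAAA (the TATA box), each searched on both strands.
Pnlip, chr19:58670115-58670364, plus strand: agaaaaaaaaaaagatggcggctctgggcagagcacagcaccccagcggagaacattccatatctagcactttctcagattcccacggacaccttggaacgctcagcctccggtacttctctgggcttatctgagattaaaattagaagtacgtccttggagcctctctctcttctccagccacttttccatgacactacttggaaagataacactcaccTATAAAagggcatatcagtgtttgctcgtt
Cel, chr2:28563404-28563653, minus strand: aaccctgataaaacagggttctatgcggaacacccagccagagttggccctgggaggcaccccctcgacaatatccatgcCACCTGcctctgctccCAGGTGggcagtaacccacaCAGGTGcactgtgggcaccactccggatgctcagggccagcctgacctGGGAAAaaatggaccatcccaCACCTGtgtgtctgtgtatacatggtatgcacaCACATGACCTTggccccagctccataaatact
Amy2a5, chr3:113258700-113258949, minus strand: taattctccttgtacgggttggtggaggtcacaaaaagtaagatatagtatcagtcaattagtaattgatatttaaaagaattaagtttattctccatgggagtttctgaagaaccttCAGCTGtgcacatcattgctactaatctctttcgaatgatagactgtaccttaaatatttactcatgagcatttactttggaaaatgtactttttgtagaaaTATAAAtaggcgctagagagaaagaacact

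A window was found for 7 of the 8 genes, with 2 starts for Amy1 and thus 8 windows. CANNTG stood in 4 of these 8 windows, those of Cel, Pnliprp1, Pnliprp2 and Amy2a5, against 66.2% of all 32851 windows of the same length. The Cel window held 5 such sites and was the only member window with TTTCCC (21.9% of all windows) or AAGGTCA (4.08%), whose letters overlap the CANNTG nearest the start. TATAAA stood 30 bases before the start of Pnlip and of Amy2a5 and 63 bases before 1 start of Amy1, against 12.4% of all windows. The windows thus shared none of these letter runs throughout, and a match or its lack says nothing about binding.

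Every member had a higher signal on the array labelled knockout. Of the 8 genes, 6 were well above background on both arrays, by the scanner software's own call, and Pla2g1b and Pnliprp2 only on the array labelled knockout. All 8 were at least 2-fold higher after scaling (7, without Pnliprp2, under either of 2 other background treatments), where 2.57% of the 13714 genes measured were 2-fold higher and 2.26% were 2-fold lower. That count describes how the genes were chosen and supports nothing further. Scaling on the median of all probes or on the 75th percentile of those detected on both arrays shifted the share of higher genes among those at 2-fold from 53.2% to 41.3% or 70.9%, and the second moved the median of all genes by 0.15. The scaled log2 differences, knockout-labelled minus wild type, ran from 2.39 to 4.49 with a median of 3.44, while the median over all genes measured was −0.09. Errors written after ± are the scanner software's error of a spot, carried to the log2 difference where one is given, and hold no variation between animals. Signals are processed signals before scaling, and probes differ in how brightly they bind, so signals are compared within a probe only, apart from sums over lists given below.

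The pancreatic lipase probe read 697 ± 70.5 in wild type and 16008 ± 1601 on the array labelled knockout. Pnlip was therefore well detected on both arrays and far brighter on the second, with a scaled log2 difference of 3.998 ± 0.205, or 15.98-fold. Its relative Pnliprp1, a lipase-like protein of the same juice with little known lipase activity, read 237.6 ± 25.8 and 3641 ± 364. Its signals were likewise above background on both arrays, and its scaled log2 difference was 3.41 ± 0.21, or 10.7-fold. Pnliprp2, a lipase that also acts on galactolipids and needs colipase less, read 19.4 ± 15.3 and 204.1 ± 28.3. The wild-type value was not well above background and lay next to the highest of 153 negative control spots on that array, 18.8. The gene has only a bound, which puts it higher by at least 3.39-fold in the array labelled knockout, taken as its scaled signal there against the lowest scaled signal that counted as well above background in wild type, or against the probe's own signal where that is higher. That bound holds for the scanner software's background correction: Pnliprp2 was at a log2 difference of 0.62 with normexp correction and 0.65 with no background subtraction, both under 2-fold. In wild type the spot's median pixel signal was 125, and negative control spots reached 109. Normexp correction here added an offset of 50, and the other setting kept the whole background. Each makes the differences of dim spots smaller, so the drop cannot show which value is nearer the true one.

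Colipase had the largest difference of the members by its brighter probe, but not by its dimmer one. Its brighter probe read 483 ± 49.3 in wild type and 15559 ± 1556 on the array labelled knockout, and its dimmer probe read 69.1 ± 13.2 and 1260 ± 127. Both probes were well above background on both arrays and both were brighter on the knockout-labelled one. Their scaled log2 differences were 4.49 ± 0.21, or 22.4-fold, and 3.67 ± 0.31, or 12.7-fold. The 2 probes thus differed by 0.82, which is over 2 times their combined error of 0.37, so the size of the colipase difference depends on the probe while its direction does not. By the dimmer probe colipase lay below Cel and Pnlip, and by the median of its probes, at 4.08, below Cel. Among all genes measured, Clps stood at rank 6 from the top by its brighter probe.

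Bile salt-activated lipase read 244.6 ± 26.5 in wild type and 6499 ± 650 on the array labelled knockout. The Cel difference of 4.21 ± 0.21, or 18.5-fold, was second among the members with colipase taken by its brighter probe, highest with the median of each gene's probes, and at rank 10 among all genes measured. Pancreatic phospholipase A2 read 56.5 ± 12.8 and 896 ± 90.5. Pla2g1b was not well above background in wild type, where its signal still exceeded that of every negative control spot. It measured 11.04-fold brighter on the array labelled knockout, a log2 difference of 3.47 ± 0.36. Its bound is no lower than this value, because its wild-type signal exceeded the lowest one called well above background, 41.9. The value too rests on the background correction, since the log2 difference was 2.26 with normexp correction and 2.27 with no background subtraction.

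The amylases had the smallest differences among the 6 genes above background on both. The Amy1 probe read 1522 ± 153 in wild type and 16294 ± 1629 on the array labelled knockout, a scaled log2 difference of 2.90 ± 0.20, or 7.45-fold. The brighter Amy2a5 probe read 11746 ± 1175 and 88243 ± 8824, and the dimmer one 607 ± 61.4 and 6688 ± 669. Both Amy2a5 probes were higher on the array labelled knockout, by 2.39 ± 0.20 (5.23-fold) and 2.94 ± 0.21 (7.67-fold), and no spot was saturated on either array. The gap of 0.55 between these probes was within 2 times their combined error of 0.29.

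Amylase genes form a cluster of close copies on chromosome 3, and the RefSeq windows shared stretches of sequence. The window of Amy2a4, like those of Amy2a3 and Amy2a2, shared an unbroken run of 162 bases with that of Amy2a5. Compared position by position without shifting, these 3 windows matched it in 15 of the 50 bases after the start and 75 of the 250 before it. By that measure the window of Amy2b matched it in 50 of the 50 bases after the start and in 110 of the 250 before it. Its longest shared run was 58 bases. These windows are mostly DNA before the start, and the window of Amy1 was not compared. Probe sequences were not available, so whether a probe labelled for 1 amylase reads transcripts of others could not be checked. The Amy2a5 and Amy1 values are uncertain in that respect. One further probe, labelled for Amy2a4 and not a member, read 10.6 and 65.1, neither of them well above background.

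**Figure D1:**
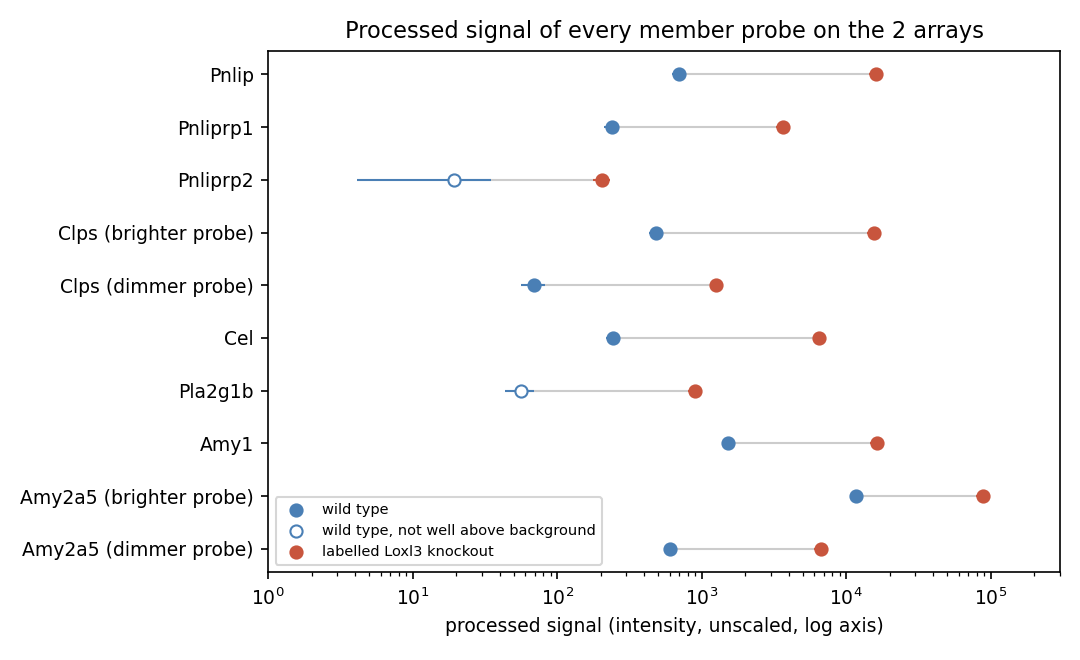
Processed signal (intensity, unscaled, log axis) of all 10 member probes on the wild-type array (blue) and the array labelled knockout (red), with the scanner software's error as bars and open circles for signals not well above background. Every probe is brighter on the array labelled knockout, from Pnliprp2 at 19.4 and 204.1 to the brighter Amy2a5 probe at 11746 and 88243.

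The measured differences were spread over the members. Of the 15 pairs among the 6 genes above background on both arrays, 9 had a gap in their log2 differences of more than 2 times the combined software error. That error covers the spot alone, and the 2 probes of colipase passed the same limit, so these gaps do not show that the genes differ. Colipase exceeded Amy2a5 by 2.10 ± 0.29 on the log2 scale, Cel exceeded it by 1.82 ± 0.29 and Pnlip by 1.61 ± 0.29. Amy1 lay below Pnlip by 1.101 ± 0.290, and below Pnliprp1 by 0.52 ± 0.30, a gap within 2 combined errors. In descending order Clps, Cel and Pnlip were each within 2 combined errors of the next, with gaps of 0.28 and 0.21. Pnlip and Pnliprp1 were at the edge of that limit, 0.58 ± 0.30 apart, and Amy1 and Amy2a5 were 0.51 ± 0.29 apart. The 4 lipid-digesting members above background on both arrays, Pnlip, Pnliprp1, Cel and Clps, all had larger differences than both amylases. The smallest gap between these sets, 0.52 as reported, ranged from 0.23 to 0.52 over the ways of processing tried. The 2 dim lipid-digesting members did not keep to this order. Pnliprp2 measured 2.88, under Amy1 at 2.90, while Pla2g1b measured 3.47. With normexp correction both, at 0.62 and 2.26, were under Amy2a5 at 2.45 and Amy1 at 2.90. For 268 probes printed several times and above background, repeated spots gave the log2 difference with a median SD of 0.112, below the software's error.

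**Figure D2:**
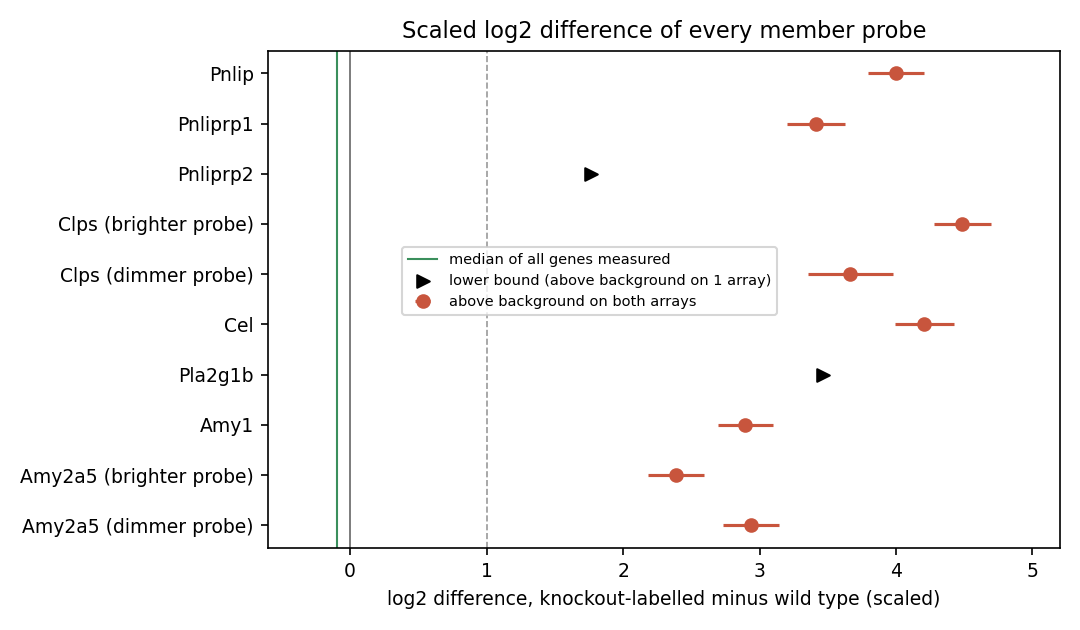
Scaled log2 difference, knockout-labelled minus wild type, of all 10 member probes with the software's error as bars, and bounds (triangles) for Pnliprp2 and Pla2g1b. The Pla2g1b bound equals its measured value. The green line is the median of all genes measured (−0.09) and the dashed line a 2-fold difference; the brighter colipase probe and Cel lie farthest right, the amylases nearest the dashed line among genes above background on both arrays.

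The spots of these probes lay apart on the array, between rows 5 and 427 of 532, the Amy2a4 probe included. Their local background ran from 14.0 to 18.5 on both arrays together, and 0 of them was marked as an outlier. The arrays shared 1 slide and 1 scan. The 75th percentile of signal was 974 in wild type and 1400 on the other array, a shift of 0.52 on the log2 scale that scaling removes, and 54.7% and 56.8% of probes were well above background. The Loxl3 probe itself read 117.0 and 124.8, a scaled log2 difference of −0.43 ± 0.29, and the labels do not say whether it lies in the deleted part. The array is therefore called by its label throughout. All 13 spleen genes with a probe (B cell, T cell, red pulp macrophage and stromal genes) were well above background on both arrays and none differed 2-fold as reported. Among them the B cell receptor gene Cd79a was at 0.75 ± 0.21, the T cell receptor gene Cd3e at 0.14 ± 0.21, the macrophage gene Cd5l at −0.86 ± 0.20 (2-fold lower in 2 of 11 other settings), Spic at −0.30, the iron exporter gene Slc40a1 at −0.18, and the spleen development genes Tlx1 and Nkx2-5 at 0.49 and 0.57.

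Most other measured products of the acinar cell were 2-fold higher on the same array. Of 16 pancreatic protease, inhibitor and ribonuclease genes with a probe, all were well above background on both arrays and all were 2-fold higher, with a median of 3.69. The elastase gene Cela3a was at 4.39 ± 0.20, the trypsinogen gene Prss1 at 4.24 ± 0.25, the carboxypeptidase gene Cpa1 at 4.08 ± 0.20 and the chymotrypsinogen gene Ctrb1 at 4.07 ± 0.20, and Cela3b was at 3.90. Their second probes were at 3.71 for Cela3a and 2.54 for Prss1. The tissue kallikrein gene Klk1 was lowest of the list at 1.15. Of 11 measured granule and secreted stress protein genes, 10 were 2-fold higher and 4 were above background only on the array labelled knockout. Their median was 3.40, or 2.61 with those 4 held at their bound, and 1.47 with normexp correction or with no background subtraction, where the members' medians were 3.02 and 3.03. Reg1, a secreted acinar protein gene, was at 4.83 ± 0.23, the scavenger receptor gene Dmbt1 at 4.30, and the granule genes Sycn and Zg16 at 4.19 and 3.44. These lists were chosen with their differences known, and bulk spleen RNA cannot tell more cells of a type from more RNA per cell.

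By the size of the difference over the 2 arrays, the genes nearest the members' median of 3.44 were mostly products of the same cells. Of the 8 nearest genes above background on both arrays, Zg16 and the carboxypeptidase gene Cpb1 were within 0.01 of it, at 3.44 and 3.45. Next came Pdia2, a protein disulfide isomerase gene of the pancreas, at 3.43 ± 0.26 and Prss29, a tryptase-like protease gene, at 3.40 ± 0.23. The trypsinogen genes Prss2, Try4 and Try5 were at 3.31, 3.24 and 3.21, and the trypsin inhibitor gene Spink1 at 3.65. With only 2 arrays this likeness is one number per gene.

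Of the measured genes that regulate acinar cells, 1 was 2-fold higher. Of 7 acinar transcription factor genes, 5 were measured and only Rbpjl, the acinar partner in PTF1, was 2-fold higher, with signals of 66.4 and 322 and a log2 difference of 1.76 ± 0.35, which was under 2-fold with either other background treatment. Ptf1a itself read 44.1 and 81.5, neither of them well above background, and the same held for Nr5a2. Xbp1 and Bhlha15, secretory cell factors that plasma cells also use, were both at 0.20, Gata6 was at 0.18 and Gata4 at −0.33 ± 0.34. Of 6 secretagogue receptor genes, the cholecystokinin receptor genes Cckar and Cckbr and the muscarinic receptor genes Chrm1 and Chrm3 were well above background on neither array. The secretin receptor gene Sctr was at −0.04, and the 2 probes of Vipr1 were at −0.31 and 0.06.

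Duct, islet and salivary gland genes were dim or within 2-fold. Of 9 pancreatic duct genes, 5 were measured and none differed 2-fold, with Krt19 at 0.00, Krt7 at −0.34, Sox9 at 0.37, Cftr at −0.44 and Car2 at −0.43. Of 19 islet genes, 14 were not well above background on either array, Gcg among them, and none of the other 5 differed 2-fold. The insulin gene Ins2 was at 0.41 ± 0.21, Pcsk2 at −0.57 and Mafa at −0.24. Ins1, detected only on the array labelled knockout, was higher there by at least 0.41 on the log2 scale. Sst, detected only on the wild-type array, measured −0.78 ± 0.16. All 10 salivary gland genes, Bpifa2 and Smr3a included, were well above background on neither array. Of 13 stomach, gut and liver genes with a probe, Cblif, Vil1, Alb and 6 others were not well above background. The stomach proton pump gene Atp4a was at −1.70 ± 0.35 (2-fold lower in 9 of 11 other settings), and Ttr was above background only on the wild-type array. Cdh17 was at 0.04, and the 2 probes of Serpina1a were at 0.08 and 0.30. Of 9 measured fat and mesothelium genes 1 was 2-fold higher, the adipocyte gene Cfd at 1.01 ± 0.20 (0.92 with scaling on the median, and also under 2-fold with no background subtraction). Among the rest, Plin1, Adipoq and Cidec were at 0.76, 0.74 and 0.62 (1.06 by the other Cidec probe), and the mesothelium genes Msln and Upk3b at −0.19 and −0.06. The processed signal summed over the fat and mesothelium list, before scaling, was 14213 in wild type and 28361 on the array labelled knockout. After scaling the ratio of the sums was 1.39, and the list's median log2 difference was 0.36. The scaled ratio of sums for the members was 6.83. Such sums mix probes of unlike brightness, so the brightest probes weigh most. The part of any of these cells in the members' differences was not tested.

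**Figure D3:**
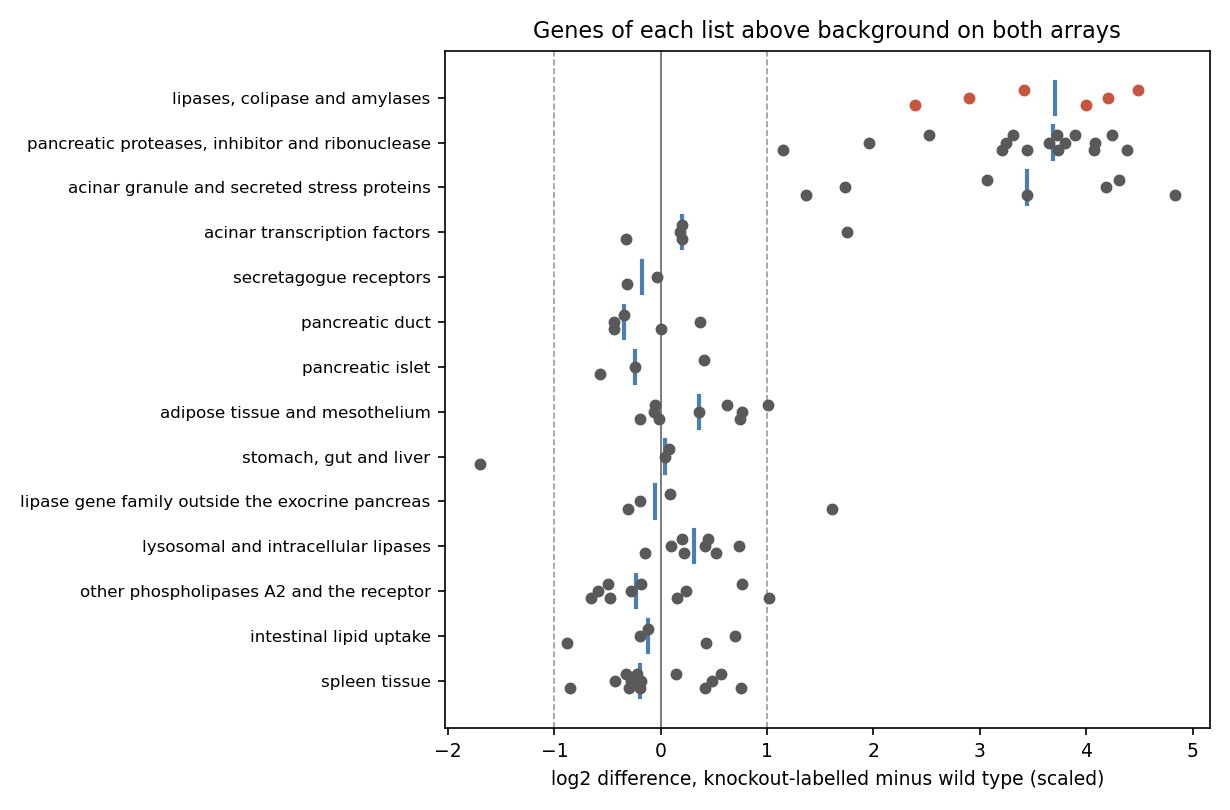
Scaled log2 differences, knockout-labelled minus wild type, of single genes (points) above background on both arrays, by list, with each list's median as a blue bar and dashed lines at 2-fold. The lipases, colipase and amylases (red), the pancreatic proteases and the granule proteins lie between 1.15 and 4.83, and the medians of the other lists between −0.34 and 0.36. By medians over all measured genes, 8 lists changed sign under at least 1 other way of processing. That median was −0.83 for the stomach, gut and liver list, against 0.04 for the genes plotted.

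Lipases and phospholipases that other tissues use were mostly close to 0. Of 5 measured genes of the extracellular lipase family and its helpers, 1 was 2-fold higher, the lipoprotein lipase gene Lpl. It read 965 in wild type and 4236 on the array labelled knockout, a log2 difference of 1.61 ± 0.20, and its other probe was at 1.04. Gpihbp1, which anchors that enzyme to capillaries, was at 0.08, Pla1a at −0.19, and the 2 probes of the lipase maturation factor gene Lmf1 at −0.31 and 0.47. The hepatic lipase gene Lipc was above background only on the wild-type array, and Lipg, Liph and Lipi on neither. None of 9 measured lysosomal and intracellular lipase genes differed 2-fold, with the hormone-sensitive lipase gene Lipe at 0.74 ± 0.36, Ces1d at 0.52, Dagla at 0.44 and the lysosomal lipase gene Lipa at 0.41. Of 10 measured phospholipase A2 genes other than Pla2g1b, the receptor included, 1 was 2-fold higher, Pla2g2f at 1.02 ± 0.22, which passed 2-fold in 6 of 11 other settings. The others named were Pla2g6 at 0.76, Pla2g2d, a phospholipase gene of lymphoid tissue, at −0.65 (brighter probe) and −0.21, and the receptor gene Pla2r1 at −0.59. That count rests on brighter probes: Pla2g5 was at 0.23 by its brighter probe but at 1.32, past 2-fold, by its other one. Pla2g7 was at −0.47 (brighter probe) and 0.67.

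Of the measured genes that act after these enzymes in the intestine, those above background on both arrays were within 2-fold. Of 10 intestinal lipid uptake genes 6 were measured, and the fatty acid transporter gene Cd36, which macrophages and fat also use, was at 0.70 ± 0.20. Fabp1 was at −0.88, Dgat1 at 0.43 and Slc27a4 at −0.19, and Mogat2, above background only on the wild-type array, was lower on the other by at least 1.88-fold. All 7 brush border carbohydrate genes, which include the maltase gene Mgam and the sucrase gene Sis, were not well above background on either array.

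Most measured genes next to the members on the chromosomes were within 2-fold. The 2 nearest protein-coding genes on each side of the lipase cluster on chromosome 19, of Cel, of Clps, of Pla2g1b and of the amylase cluster were taken by gene order, which gave 20 genes. Of these, 11 were above background on both arrays and 10 of the 11 were within 2-fold. Gtf3c5 and Ralgds, on either side of Cel, were at −0.18 and −0.16, Lhfpl5 next to Clps at −0.06, Sirt4 next to Pla2g1b at 0.02 and Rnpc3 next to Amy1 at 0.02, all within 1 software error of 0. Gfi1b, beyond Gtf3c5, was at −0.87 ± 0.22, and Prmt6, before the amylase cluster, at −0.57 ± 0.23. The colipase-like gene Clpsl2, above background only on the array labelled knockout, was higher there by at least 0.67. The exception was Msi1, an RNA-binding protein gene on the other side of Pla2g1b, at 1.79 ± 0.22.

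Every member value computed under 11 other ways of processing kept its direction (all 8 members in 10 of them, and 6 with probes required above background on both arrays), and the values of the 2 dim members depended on the background correction. With normexp correction on the spots' median pixel signals, Pnliprp2 was at 0.62 and Pla2g1b at 2.26 in place of measured values of 2.88 and 3.47, and with no background subtraction at 0.65 and 2.27. The 6 genes above background on both arrays stayed at 2.29 or more in each of these settings.

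**Figure D4:**
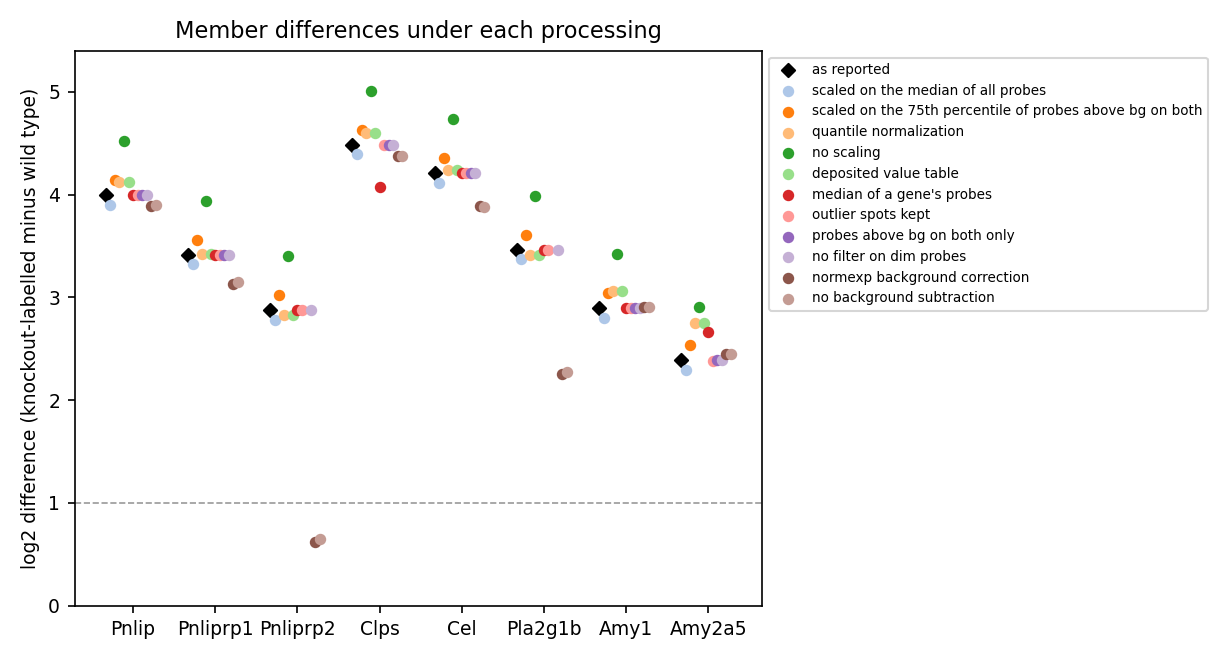
Log2 difference, knockout-labelled minus wild type, of each member as reported (black diamonds) and under 11 other ways of processing (coloured points), with the dashed line at 2-fold. Only Pnliprp2 falls below that line, at 0.62 with normexp correction and 0.65 with no background subtraction.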

How the data were processed

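The members and gene lists were chosen with earlier results of these data known. Per the labels' protocols, total RNA from fresh spleens was labelled with Cy3 and measured on 2 one-colour arrays. Per the file headers, Feature Extraction 11.0.1.1 made the scanner files, whose processed signal is a background-corrected linear intensity per spot. The deposited value table holds log2 values, and the median of each column is 6.71. Set against the scanner values, it differed from log2 signals quantile-normalized between the arrays by over 1 for 3 of 39420 probes, and no source used here states how it was made.

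Control spots and spots marked as outliers (110 and 132) were left out, log2 processed signals of a probe's spots were averaged, and each array's 75th percentile was subtracted. Probes were named by unversioned RefSeq accession through a GRCm38.p6 gene table, which covered 27226 of 39420 probes. The array's positions use another build, so the table served for names and gene order. A gene took the value of its brightest probe among those well above background on at least 1 array (13714 genes, 13033 on both). Named genes were the members, the 4 largest differences above background on both arrays and the defining markers of each list, and the 8 genes nearest the members' median. Neighbouring genes, the Amy2a4 probe, the lowest member of the protease list, Pla2g5, Pla2g7 and list members above background on 1 array were named after their values were seen. One defining marker is not reported here. With 0 residual degrees of freedom there was no test. The number of arrays limits the precision. Calculations used Python 3.11.15, pandas 2.3.3 and limma 3.58.1 (normexp), and were tested on simulated data.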

Additional observations from a re-analysis of the deposited data

How the results depend on the processing

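The lowest, median and highest member difference were 2.39, 3.44 and 4.49 on the log2 scale. With no scaling they were 2.91, 3.96 and 5.01. The lowest was 2.75 with quantile normalization, 2.75 with the deposited value table and 2.66 with the median over each gene's probes, which lowered the highest to 4.21. When probes had to be above background on both arrays, the 6 remaining members had a median of 3.71, because that filter drops the 2 dim members. With normexp correction the lowest was 0.62 and the median 3.02, and with no background subtraction 0.65 and 3.03, Pnliprp2 being the lowest. The last 2 settings were chosen after seeing the data, since the deposited scanner files hold median pixel signals and the planned settings named mean signals, so those planned settings were not run. Normexp correction added an offset of 50 and the other kept the background, so smaller differences of dim genes follow in part from these settings. Of all genes measured, 352 were 2-fold higher and 310 lower. These counts were 1466 and 102 with no scaling, 613 and 699 with no filter, 235 and 233 with the filter on both arrays, 151 and 186 with normexp correction, and 152 and 189 with no background subtraction. All 86 member values under 11 settings were above 0, and 67 of them moved by less than the software's error. The medians of the protease, granule protein, acinar transcription factor, fat and intracellular lipase lists kept their sign in all 11 settings, though the granule protein median of 3.40 fell to 1.47 with normexp correction and with no background subtraction, and each of the other 8 measured lists changed sign in 1 to 3. No replicate could be left out, and no paired analysis was possible because each genotype has 1 array.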
